A study of Mus musculus with 24 samples.

Results

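The circular RNAs described here are those of mouse genes whose symbol is Zfp followed by a number, the general name for zinc finger proteins. They were chosen from a table of 1717 circular RNAs by host gene: both ends of the back-splice junction, the join of a downstream exon end to an upstream exon start, had to lie at exon edges of a Zfp gene on the junction's strand. The circle of Zfp609 was set aside. The rule gave 23 circles of 16 host genes, or 1.34% of the circular RNAs in the table.

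The libraries were made from cardiac fibroblasts of male C57BL/6J mice. The mice were operated on at 8 weeks of age and received either transverse aortic constriction (TAC), a narrowing of the aortic arch against which the left ventricle must pump, or a sham operation. Cells were collected 1, 4 or 8 weeks later. The sham groups held 4, 5 and 4 libraries in order of time and the TAC groups 4, 4 and 3. All mice were of this 1 strain and no transgene is named. No sort on cell type is given in the labels, and they do not say whether each library came from a separate animal, so the replicate spread behind every p-value may be technical in part.

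Zinc finger proteins of this kind fold short loops of their chain around a zinc ion, held by a pair of cysteines and a pair of histidines, and each such finger contacts a few bases of DNA. A large branch of the family also carries a KRAB box near the start of the protein, which recruits the corepressor Trim28 and, through it, the histone methyltransferase Setdb1 to silence chromatin, including that of transposable elements. In these genes the KRAB box is typically encoded by small exons and the fingers by 1 long last exon. Circular RNAs form when the splicing machinery joins exons backwards, so most circles hold only inner parts of a message.

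The circles of the KRAB genes held the repressor box and none of the fingers. A C2H2 finger was searched for in the protein translated from each host transcript as cysteine, 2 to 4 residues, cysteine, 12 residues, histidine, 3 to 5 residues and histidine. All 16 hosts encoded at least 1 match. A pattern for the start of the KRAB box was matched by 5 hosts, Zfp426, Zfp141, Zfp790, Zfp568 and Zfp606, and by no other host of the 1657 circles whose ends lie in 1 transcript. Each of these 5 genes gave 1 circle, all 5 circles contained a KRAB match, and 0 contained a finger. All 57 fingers of these 5 proteins lay in the last exon of their transcripts, and a last exon was in 0 of these 1657 circles. The Zfp568 protein had a second KRAB match, which lay outside its circle.

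Of these 5 circles, 3 lie wholly in coding exons, and their sequences are shown because they carry the box itself. They run 5′ to 3′ from the first base after the junction, as spliced from the GENCODE transcripts of mm10, with the KRAB match in capitals. The Zfp606 circle joins exon 6 to exon 5 (chr7:12489570-12490044, plus strand). The Zfp568 circle also joins exon 6 to exon 5 (chr7:29997750-29998210, plus strand), and that of Zfp426 joins exon 5 to exon 3 (chr9:20473028-20476478, minus strand).
Zfp606: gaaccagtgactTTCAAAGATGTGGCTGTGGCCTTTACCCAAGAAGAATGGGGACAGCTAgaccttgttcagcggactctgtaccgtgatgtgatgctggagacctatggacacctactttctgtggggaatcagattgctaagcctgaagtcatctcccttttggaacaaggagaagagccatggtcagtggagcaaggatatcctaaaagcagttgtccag
Zfp568: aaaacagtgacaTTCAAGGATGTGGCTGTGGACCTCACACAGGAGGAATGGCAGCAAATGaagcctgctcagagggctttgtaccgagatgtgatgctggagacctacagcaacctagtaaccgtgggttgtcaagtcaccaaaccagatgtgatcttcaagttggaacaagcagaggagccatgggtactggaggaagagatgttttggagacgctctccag
Zfp426: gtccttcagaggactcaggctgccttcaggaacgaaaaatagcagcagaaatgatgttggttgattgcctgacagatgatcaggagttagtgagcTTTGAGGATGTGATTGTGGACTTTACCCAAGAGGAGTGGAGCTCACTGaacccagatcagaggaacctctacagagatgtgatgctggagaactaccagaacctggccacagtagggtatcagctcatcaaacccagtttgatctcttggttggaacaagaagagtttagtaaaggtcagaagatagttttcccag

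The Zfp606 and Zfp568 circles had the same design. Both were 223 bases long, made of an exon of 127 bases followed by one of 96 bases, and in both the KRAB match covered bases 13 to 60. Set side by side without gaps, 155 of the 223 bases were the same, an identity of 69.5%. The Zfp426 circle of 291 bases also held an exon of 127 bases with the KRAB match, between exons of 83 and 81 bases. The remaining 2 KRAB circles, Zfp141 exons 3 to 5 (chr7:42488470-42490276) and Zfp790 exons 2 to 3 (chr7:29822980-29824953), contained the start codon and untranslated bases as well as the KRAB match. Thus 4 of the 5 KRAB hosts lie on chromosome 7 and 1 on chromosome 9.

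The 18 circles of the 11 hosts without a KRAB match were mixed in this respect. Whole fingers were encoded inside 10 of them, so that 10 of all 23 Zfp circles (43.5%) held a finger. Of the 67 circles of the other finger-encoding hosts in the table, 26 (38.8%) did. The most finger-rich were those of Zfp236, with 9 of 30 fingers in exons 2 to 7 and 8 of 29 in both exons 2 to 6 and exons 2 to 8. Only the junction is read, so inner exons, and the fingers counted in them, are those of 1 chosen transcript per circle. Exon 2 of Zfp516 held 8 of 10, and exons 3 to 5 of Zfp644 held all 7 of its host's fingers. Zfp532 exons 5 to 8 held 6 of 10 and exons 7 to 8 held 3, Zfp521 exons 6 to 7 held 2 of 27, Zfp362 exons 2 to 6 held 2 of 6 and Zfp512 exons 4 to 7 held 1 of 3. The 4 Zfp827 circles and those of Zfp292, Zfp148, Zfp638 and Zfp532 exon 4 held 0.

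**Figure D1:**
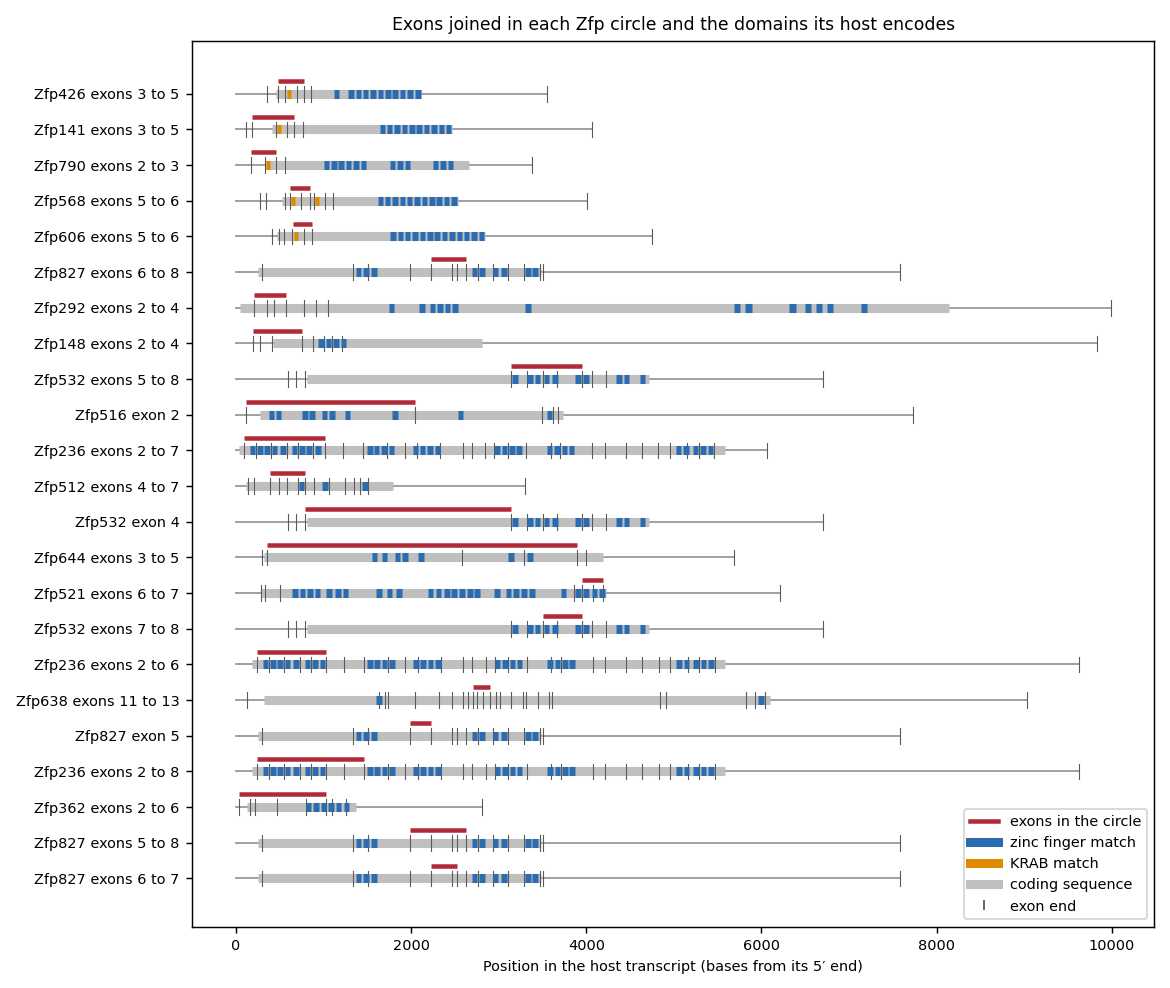
Each row is 1 of the 23 Zfp circles drawn on its host transcript, with position in bases from the transcript's 5′ end on the horizontal axis; red bars are the exons in the circle, blue blocks zinc finger matches, orange blocks KRAB matches, thick grey lines coding sequence and vertical ticks exon ends. In the 5 KRAB hosts at the top the red bar covers an orange block and lies before all of the blue blocks.

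In their general build the Zfp circles resembled the other circles of the table in some measures and not in others, as a description without a test. The median spliced length was 445 bases against 420 for the 1657 circles with both ends in 1 transcript, and the median number of exons was 3 in both. The median genomic span was shorter, at 2882 against 6325 bases. A single exon made up 3 of 23 circles (13.0%) against 6.34%, and 8 of 23 (34.8%) began at exon 2, against 36.03%. Coding bases alone made up 17 of the 23 (73.9% against 82.3%), and 6 contained the start codon of the host (26.1% against 15.8%). The introns next to the circles had median lengths of 11081 bases upstream and 13415 bases downstream, against 10933 and 9861 bases.

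Some of the family shares sequence, and no source used here gives the aligner's handling of such reads. Words of 30 bases from 16 of the 23 circles were found in transcripts of no other gene symbol, 7 circles shared some, and 4 shared over 5%. Those 4 were Zfp141 (22.1%, most with 2610021A01Rik), Zfp512 (14.5%, Gm43722), Zfp426 (11.8%, Zfp26) and Zfp790 (8.85%, Zfp940). These are shares of the whole circle sequence, while a circle is counted at its junction, so they do not measure the error of its value. How far the sharing affects the values of these circles was not tested. The 30 bases across the junction were found in a linear transcript for 0 of the 23.

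Values below are normalized junction reads, the authors' normalized signal with a constant offset of 0.01 removed. A circle is counted at its 1 junction, so its value does not scale with its length. The libraries held 3595 to 9146 junction reads in all, and 1 read was worth 0.642 to 1.57 normalized reads. The Zfp circles took 2267 of 138868 reads (1.63%; 1.15% to 1.98% by library), from 54 to 145 reads a library. Most members were scarce: 6 of 23 (26.1%) had a read in every library, against 277 of 1717 (16.1%), and those with the 6 highest means held 65.8% of the Zfp reads. The median of the members' means was 1.91 normalized reads, beside 1.80 over the table.

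The most abundant was Zfp827 exons 6 to 8, with a mean of 18.8 normalized reads that ranked 29 of 1717. Zfp827 encodes a protein known for bringing the NuRD chromatin remodelling complex to telomeres. Zfp292 exons 2 to 4 followed at 11.4 (rank 68), from a gene for a large DNA-binding protein whose human counterpart is the host of a circular RNA studied in endothelial cells. Zfp148 exons 2 to 4 had a mean of 9.52 (rank 99), and encodes a factor that binds GC-rich promoters. The KRAB gene circle Zfp426 exons 3 to 5 had 8.08 (rank 128), Zfp532 exons 5 to 8 had 7.63 (rank 142) and Zfp516 exon 2 had 6.06 (rank 204). Zfp532 encodes a chromatin-bound partner of the zinc finger proteins Zfp592 and Zfp687, and Zfp516 a factor that activates Ucp1 in brown fat. Neighbours in this order overlapped in their ranges over libraries: Zfp827 exons 6 to 8 ran from 9.31 to 29.0, Zfp292 from 3.01 to 19.95 and Zfp148 from 4.50 to 21.0.

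The next 4 by mean were Zfp236 exons 2 to 7 (3.19), Zfp141 (3.12), Zfp512 (3.08) and Zfp532 exon 4 (2.96). The lowest 3 were Zfp827 exons 6 to 7 (1.11), Zfp827 exons 5 to 8 (1.13) and Zfp362 (1.14), each at about the worth of 1 read per library. The scarce members Zfp638 (1.35) and Zfp644 (1.91) come from genes whose proteins act in silencing: Zfp638 recruits the HUSH complex to unintegrated viral DNA, and Zfp644 is a partner of the histone methyltransferases Ehmt1 and Ehmt2. Zfp521, known for holding back the differentiation of progenitor cells, gave a circle at 1.81. There was no member without a read in all libraries of a group.

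The sums over the 23 circles overlapped between sham and TAC at each time. At 1 week the sham libraries summed to 82.7 ± 12.7 normalized reads and the TAC libraries to 97.1 ± 6.95 (SD, n = 4 each). The values were 95.6 ± 7.68 (n = 5) against 97.1 ± 4.26 (n = 4) at 4 weeks, and 97.7 ± 11.0 (n = 4) against 88.5 ± 8.51 (n = 3) at 8 weeks. By library they ran from 69.1 to 99.8 in sham and from 89.1 to 103 in TAC at 1 week. No test was made on the sum, since the members were chosen with earlier results known.

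**Figure D2:**
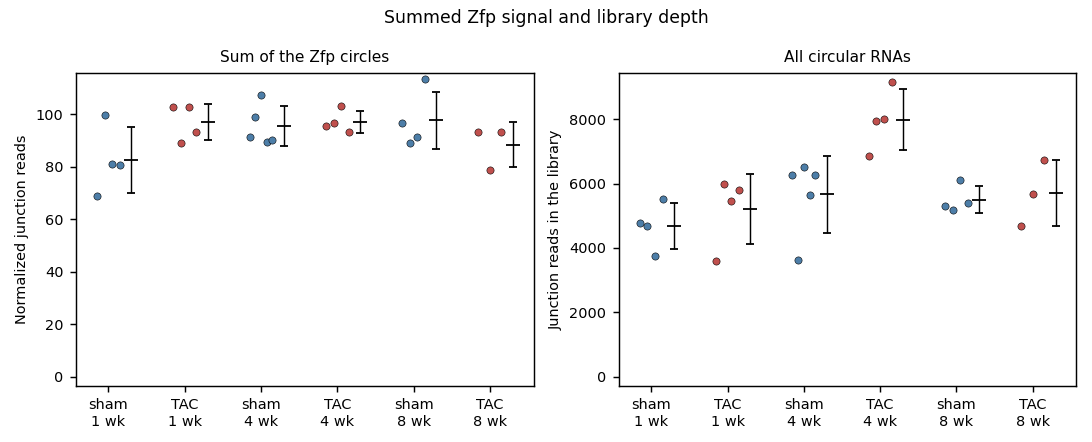
Left, the sum of the 23 Zfp circles in normalized junction reads; right, the junction reads of all circular RNAs, each point 1 library (blue sham, red TAC) with the group mean and SD beside it. The Zfp sums lie between 69.1 and 113, while depth was highest in the TAC libraries at 4 weeks.

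The question of the design was whether pressure overload changed these circles in cardiac fibroblasts. By limma's moderated test over all 1717 circular RNAs, with Benjamini-Hochberg adjustment and calls at an adjusted p of 0.05, 0 of the 23 Zfp circles passed in any of the 10 comparisons made. The same test called 1.46% of all circular RNAs for TAC against sham at 1 week, 0.116% at 4 weeks, 0% at 8 weeks and 0.641% for the average of the 3 times, so 0 of 23 lies near the background. The limma-voom test on recovered whole reads also called 0 members, against 0.815%, 0.408%, 0% and 1.16% of the table. At an unadjusted p under 0.05 there were 1, 1, 2 and 3 members, beside 11.7%, 7.98%, 6.06% and 9.9% of all circular RNAs.

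The directions were split as well. On the log2 scale, 14 of 23 members were above 0 at 1 week, 13 at 4 weeks, 10 at 8 weeks and 11 for the average. The members' median log2 fold changes were 0.28, 0.18, -0.07 and -0.04, beside 0.04, 0.12, 0.03 and 0.06 for all circular RNAs. Fold changes are on the log2(normalized reads + 0.5) scale, which understates changes of scarce circles, and fewer cells of a type and less RNA per cell cannot be told apart in such libraries. With trimmed mean scaling (TMM) the median of all circular RNAs at 4 weeks moved from 0.12 to 0.23. That of the members moved from 0.18 to 0.30, with 16 of 23 above 0. For the average, the TMM medians were 0.11 for all circular RNAs and 0.02 for the members, with 15 of 23 above 0.

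Circles of marker genes of other cells were read in these libraries. Of 15 cardiomyocyte markers 5 had circles in the table, 10 circles in all, and their summed level was 38.3 to 135 in sham and 21.4 to 32.3 in TAC at 1 week, 39.6 to 123 and 15.98 to 39.2 at 4 weeks, and 57.7 to 120 and 42.0 to 50.1 at 8 weeks. These sham and TAC sums did not overlap at any time. Of the 10 circles, 2 were called lower in TAC at 1 week by limma's adjusted test, Ryr2 exons 59 to 62 and Ttn exons 85 to 118. Ttn exons 84 to 118 was not called at that time (adjusted p = 0.189 by limma). By the same test 2 Ttn circles were lower at 4 weeks and on average. Leukocyte marker circles summed to 66.8 to 177 over all libraries, with 0 of 18 circles called, and 5 endothelial circles to 5.02 to 18.6 with 0 called. The 1 mural circle, of Abcc9, was at 0 to 10.998 and was not called. The fibroblast markers Pdgfra, Tcf21, Col1a1, Col1a2, Col3a1, Ddr2, Postn and Fn1 had no circle in the table, so the label could be checked only on Dcn, Lama2, Fbn1, Svep1 and Nav1, with 8 circles. Their summed level was 4.51 to 26.4 in sham and 15.6 to 29.9 in TAC at 1 week, then 15.7 to 18.4 and 20.3 to 25.7, without overlap, and at 8 weeks 7.45 to 20.2 and 18.001 to 27.5. Of the 8 circles, 4 lay above 0 and 4 below at 4 weeks, with a median log2 fold change of 0.03. On average 5 lay above 0 and 3 below. Of the 8, Svep1 exons 2 to 3 rose on average (log2 fold change 1.22 ± 0.30, adjusted p = 0.0124 by limma). The part of these cells in the Zfp values was not tested.

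**Figure D3:**
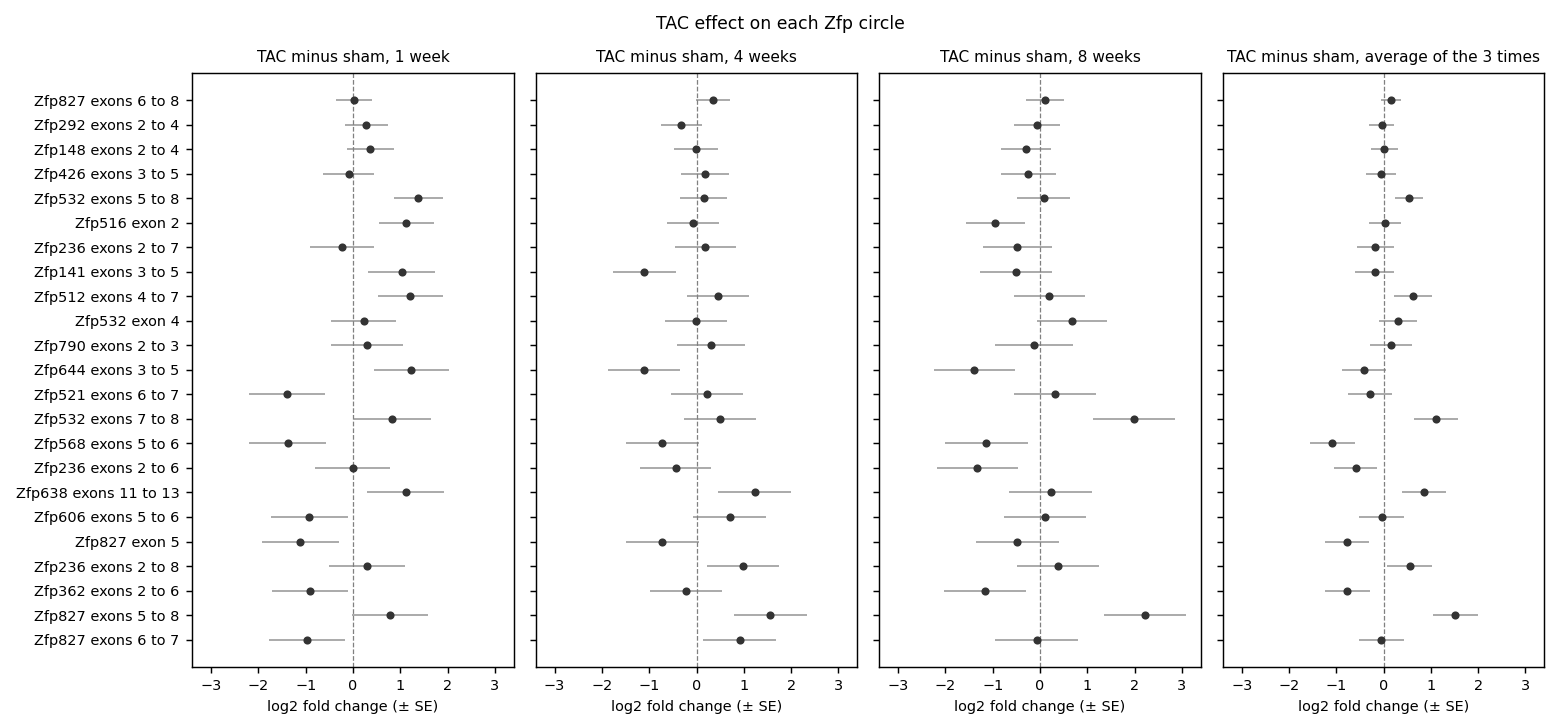
Log2 fold change of TAC over sham with its SE for each of the 23 Zfp circles, ordered by mean level from top to bottom, at 1, 4 and 8 weeks and averaged. Bars are shorter for the abundant circles at the top, of which Zfp532 exons 5 to 8 reached 1.38 and Zfp516 exon 2 reached 1.13 at 1 week. At 8 weeks the points run from -1.39 to 2.22, both ends being circles of a few reads.

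Zfp292 and Zfp148, next by level after Zfp827 exons 6 to 8, had averaged changes close to 0. The Zfp292 circle is compact, with 3 exons and 370 bases within 655 bases of chromosome 4 (chr4:34839332-34839986, minus strand), downstream of an intron of 42771 bases. Its junction has the last 15 bases of exon 4 in lower case and the first 15 of exon 2 in capitals.
Zfp292 exons 2 to 4: tggataaagagaaagACACTTCTTGAATAT

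For Zfp292 the means at 1 week were 10.0 ± 7.13 in sham and 11.0 ± 5.37 in TAC (SD, n = 4 each). The sham libraries there spread from 3.01 to 19.95, the whole range seen in the 24 libraries. The means at 4 weeks were 15.1 ± 2.11 (n = 5) and 12.3 ± 3.72 (n = 4), and those at 8 weeks 9.55 ± 2.95 (n = 4) and 9.05 ± 2.79 (n = 3). Its averaged change was -0.04 ± 0.27 (adjusted p = 0.985 by limma). For Zfp148 the sham and TAC means were 9.45 ± 4.20 and 13.6 ± 8.24 at 1 week, 6.54 ± 1.82 against 6.58 ± 2.55 at 4 weeks, and 11.8 ± 3.65 against 10.0 ± 5.25 at 8 weeks. At 1 week its TAC libraries fell into a pair near 6 (6.15 and 6.71) and a pair near 20 (21.0 and 20.4). The averaged change was 0.02 ± 0.29 (adjusted p = 0.991).

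**Figure D4:**
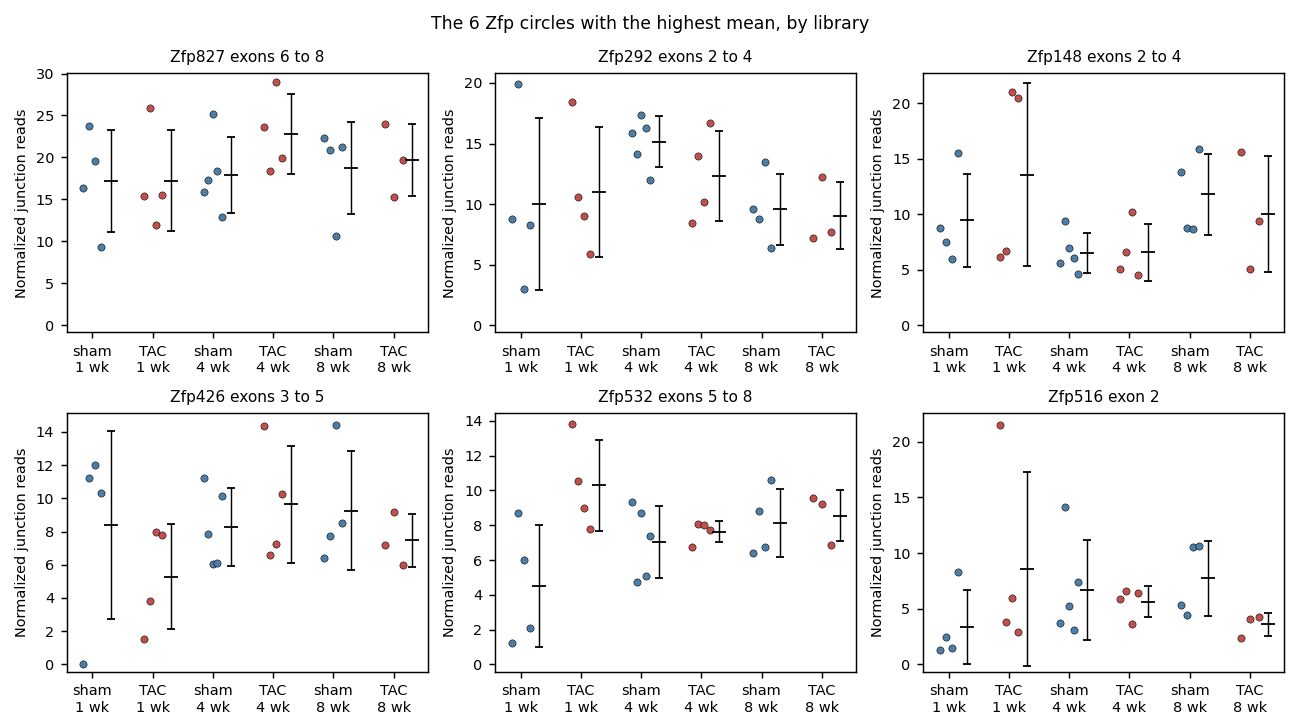
Normalized junction reads of the 6 most abundant Zfp circles in every library (blue sham, red TAC; each point 1 library, with the group mean and SD beside it; y axes differ). Sham and TAC overlap in every panel and time except Zfp516 at 8 weeks, and single libraries stand apart for Zfp426 in sham and Zfp516 in TAC at 1 week.

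Zfp827 gave 4 circles that draw on the same few splice sites. The starts are those of exons 5 and 6, and the ends are those of exons 5, 7 and 8 (chr8:79091833-79136663 in all, plus strand, 15 exons in the host transcript). The 30 bases across each junction show this sharing: the 15 bases before the join are in lower case and the 15 after it in capitals.
Zfp827 exons 6 to 8: gagtgtctgctccagCGGAAAGCTACAAGG
Zfp827 exons 5 to 8: gagtgtctgctccagCTGCAAACCAGAAGG
Zfp827 exon 5: tcatgaaactctcagCTGCAAACCAGAAGG
Zfp827 exons 6 to 7: gcggacaaccaccagCGGAAAGCTACAAGG

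Exons 6 to 8 dominated. It held 461 of the gene's 545 junction reads (84.6%) and was the highest of the 4 in 24 of 24 libraries. Its levels at 1 week were 16.3, 23.7, 19.5 and 9.31 in sham and 15.4, 25.9, 11.98 and 15.6 in TAC. At 4 weeks they were 15.9, 17.3, 25.2, 18.3 and 12.9 in sham and 23.7, 18.3, 29.0 and 19.9 in TAC. At 8 weeks they were 22.3, 20.9, 10.6 and 21.2 in sham and 23.9, 15.3 and 19.7 in TAC. The groups overlapped at every time, and the averaged log2 fold change was 0.15 ± 0.22 (SE; adjusted p = 0.895 by limma).

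The scarce circle of exons 5 to 8, which adds exon 5 to the dominant circle, was read mostly in TAC libraries. At 1 week its levels were 0, 0, 1.503 and 0 in sham and 3.08, 0, 0 and 1.95 in TAC. At 4 weeks they were 0, 0, 1.74, 0 and 0.921 in sham and 0.845, 2.20, 3.63 and 1.93 in TAC. At 8 weeks they were 0, 0, 0 and 1.06 in sham and 2.39, 4.09 and 1.71 in TAC. It thus had a read in 4 of 13 sham and 9 of 11 TAC libraries, with 5 and 24 reads in all, and sham and TAC did not overlap at 8 weeks. Such separation at 8 weeks was seen for 2 Zfp circles, beside 6.12% of all circular RNAs, and in none at 1 or 4 weeks (5.24% and 3.55% of the table).

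Its averaged log2 fold change was 1.52 ± 0.47 (SE), with the smallest p of any Zfp circle for that average, and its adjusted p of 0.113 by limma missed the threshold. Over 30 other settings the adjusted p ran from 0.0524 to 0.197. The fold change was 1.56 ± 0.76 at 4 weeks (adjusted p = 0.596) and 2.22 ± 0.87 at 8 weeks (adjusted p = 0.753). The 4-week TAC libraries were the deepest, at 6846 to 9146 reads against 3618 to 6524 in sham, while at 8 weeks depth overlapped, at 4685 to 6731 in TAC and 5170 to 6103 in sham. As a share of the gene's reads, exons 5 to 8 took 2% in pooled sham and 8.14% in pooled TAC libraries.

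The other pair of minor Zfp827 circles also missed the threshold. Exon 5 alone took 7.2% of the gene's reads in pooled sham and 3.39% in pooled TAC libraries, with an averaged log2 fold change of -0.77 ± 0.47 (adjusted p = 0.592 by limma). Exons 6 to 7 took 5.2% and 4.75%, with -0.04 ± 0.47 (adjusted p = 0.986). Each rested on 27 or 28 reads over the 24 libraries.

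**Figure D5:**
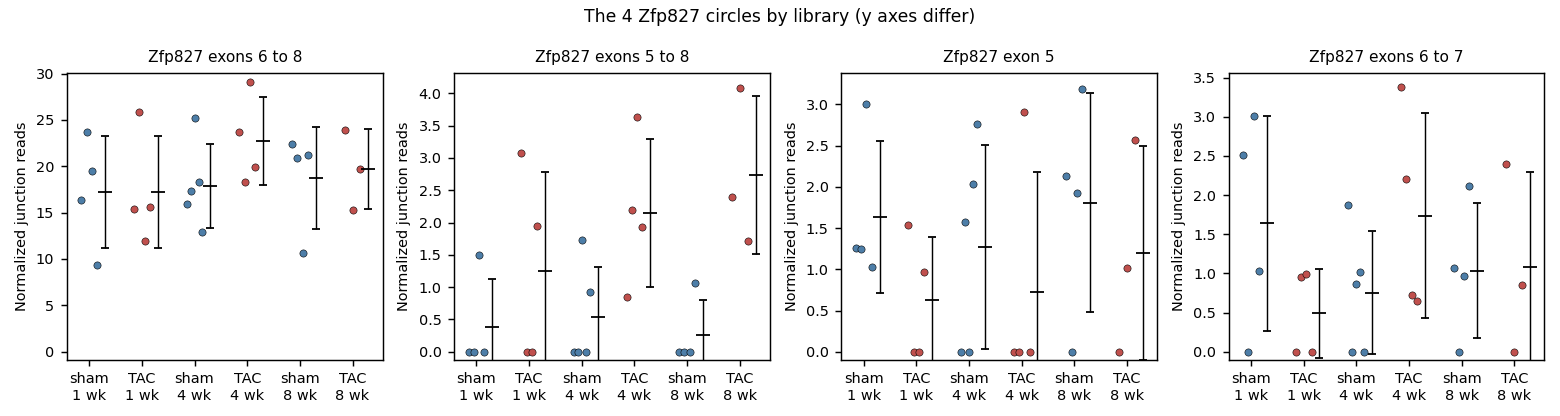
Normalized junction reads of the 4 Zfp827 circles in every library (blue sham, red TAC; each point 1 library, with the group mean and SD beside it; y axes differ). Exons 6 to 8 lie between 9.31 and 29.0 in all groups, and exons 5 to 8 are at 0 in 9 of 13 sham and 2 of 11 TAC libraries.

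Zfp532 gave 3 circles, of which exons 5 to 8 held 185 of 299 reads (61.9%), exon 4 held 24.1% and exons 7 to 8 held 14.0%. The gene lies on chromosome 18, where exons 5 to 8 span 65638750 to 65656632 on the plus strand. Exons 5 to 8 measured 1.26, 8.73, 6.01 and 2.07 in sham and 13.8, 10.5, 8.98 and 7.78 in TAC at 1 week. The highest sham library lay within the TAC range and 2 sham libraries were far below it. The log2 fold change was 1.38 ± 0.52 (SE), the smallest p of the Zfp circles at that time, with an adjusted p of 0.174 by limma. It passed the test with an adjusted p of 0.0408 when only circular RNAs with a mean of at least 5 reads were tested, and it was 0.98 without sham replicate 1.

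At the later times the groups of Zfp532 exons 5 to 8 lay together. At 4 weeks they measured 7.04 ± 2.08 (sham; SD, n = 5) and 7.63 ± 0.60 (TAC; n = 4), and at 8 weeks 8.13 ± 1.96 (n = 4) and 8.54 ± 1.47 (n = 3). The TAC effect was lower at 4 weeks than at 1 week by 1.23 ± 0.72 on the log2 scale, which did not pass limma's test (adjusted p = 0.696).

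Zfp532 exons 7 to 8, nested in the larger circle, measured 0, 0, 0 and 1.06 in sham and 4.79, 2.04 and 0.857 in TAC at 8 weeks. The sham library with a read lay above the lowest TAC library. The fold change there was 1.99 ± 0.87 (adjusted p = 0.753 by limma), and the average over times was 1.10 ± 0.47 (adjusted p = 0.337). The single-exon circle of exon 4, which is 2351 bases long, had an averaged change of 0.30 ± 0.40 (adjusted p = 0.888).

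Zfp236 gave 3 circles that share the start of exon 2 and end at exon 6, 7 or 8 of their transcripts (chromosome 18, minus strand). Exons 2 to 7 held 78 of 146 reads (53.4%), exons 2 to 6 held 28.1% and exons 2 to 8 held 18.5%. The transcript matched by exons 2 to 7 has an extra exon of 144 bases as its exon 7, ahead of the exon of 204 bases that is exon 7 in the transcript of the others. Their averaged log2 fold changes were -0.17 ± 0.39, -0.59 ± 0.46 and 0.55 ± 0.47, with adjusted p-values of 0.972, 0.704 and 0.746 by limma.

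Zfp516 exon 2, a circle of 1 exon of 1926 bases, stood in opposite orders at the first and last time. At 1 week it measured 1.26, 2.49, 1.503 and 8.27 in sham and 21.5, 3.83, 5.99 and 2.92 in TAC. At 8 weeks the order was the other way, with 5.32, 4.40, 10.6 and 10.6 in sham and 2.39, 4.09 and 4.29 in TAC, and the groups did not overlap. The log2 fold change was 1.13 ± 0.58 at 1 week (adjusted p = 0.428 by limma) and -0.95 ± 0.63 at 8 weeks (adjusted p = 0.861). The first was 0.56 without TAC replicate 1. The difference between the effects was -2.08 ± 0.86 (adjusted p = 0.417).

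Zfp644 exons 3 to 5, the circle with all 7 fingers of its host, showed a like order at a lower level. Its mean went from 0.690 in sham to 2.70 in TAC at 1 week, and from 3.198 in sham to 0.970 in TAC at 8 weeks, on 2, 11, 12 and 3 reads. The difference of the TAC effect at 8 weeks from that at 1 week was -2.62 ± 1.18 (adjusted p = 0.482 by limma), and ran from -3.35 without TAC 1-week replicate 1 to -1.97 without TAC 8-week replicate 2, and was -4.01 with a pseudocount of 0.1. In all 3 comparisons of the TAC effect between times, 0% of all circular RNAs were called, and 2, 2 and 0 members had an unadjusted p under 0.05, beside 8.04%, 8.62% and 6.35% of the table. The limma-voom test called 0 members there, against 0%, 0.175% and 0.116% of the table.

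Among the KRAB gene circles, Zfp568 was the one lower in TAC at each time, without passing the test. Zfp568 encodes a repressor known for silencing a placental transcript of Igf2. It measured 3.77, 4.99, 3.01 and 0 in sham and 0, 1.92, 0 and 0.973 in TAC at 1 week. At 4 weeks the values were 1.87, 7.86, 2.60, 0 and 0 in sham and 0, 1.47, 0 and 1.93 in TAC, and at 8 weeks 1.06, 3.30, 0.962 and 2.12 in sham and 0, 0 and 3.43 in TAC. Reads were present in 10 of 13 sham and 5 of 11 TAC libraries, and the groups overlapped at each time. The averaged log2 fold change was -1.08 ± 0.48 (adjusted p = 0.392 by limma).

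Zfp606, whose circle has the same exon lengths, had an averaged change of -0.04 ± 0.47 (adjusted p = 0.986 by limma), on 34 reads. Zfp426, the abundant KRAB circle, changed by -0.05 ± 0.31 (adjusted p = 0.984) and Zfp790 by 0.16 ± 0.44 (adjusted p = 0.976). In sham at 1 week Zfp426 had 0 reads in replicate 1 and 11.2, 12.02 and 10.3 normalized reads in the other 3 libraries, and TAC gave 1.54, 3.83, 7.99 and 7.78. The TAC range thus fell between the empty sham library and the rest. That library held 4762 junction reads in all, and a count of 0 allows up to 3 reads, or 3.77 normalized reads, for counting error only.

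Zfp141 exons 3 to 5 had its lowest mean in the 1-week sham libraries. It measured 2.51, 1.25, 0 and 0 in sham at 1 week, 6.54, 6.28, 4.34, 2.04 and 6.45 in sham at 4 weeks, and 4.26, 5.5, 5.77 and 2.12 in sham at 8 weeks. The lowest library at each later time lay within the range at 1 week. The log2 fold change was 2.30 ± 0.67 at 4 weeks over 1 week (adjusted p = 0.209 by limma) and 2.12 ± 0.71 at 8 weeks over 1 week (adjusted p = 0.283). The first passed the test, at an adjusted p of 0.0457, when sham 1-week replicate 1 was left out. These 2 comparisons share the 1-week sham libraries, the difference of 8 weeks from 4 weeks was -0.18 ± 0.67 (adjusted p = 0.975), and time after surgery is also age.

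The TAC libraries gave Zfp141 values of 3.08, 4.79, 0 and 1.95 at 1 week. They gave 2.54, 2.93, 1.45 and 1.28 at 4 weeks, and at 8 weeks 3.59, 1.02 and 5.14. TAC was thus above sham in mean at 1 week (2.45 against 0.940) and below it at 4 weeks (2.05 against 5.13), with overlap at both. The difference of the effects was -2.14 ± 0.98 (adjusted p = 0.573 by limma).

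For the sham libraries over time, 0 of 23 members were called in each of the 3 comparisons, beside 0%, 0.116% and 0% of all circular RNAs. The limma-voom test also called 0, against 0%, 0.0582% and 0%, and 0 members had groups that did not overlap, against 2.1%, 3.67% and 2.5%. At an unadjusted p under 0.05 there were 1 at 4 weeks over 1 week, 4 at 8 weeks over 1 week and 0 at 8 weeks over 4 weeks, beside 7.57%, 7.51% and 6.93% of the table. The 4 were Zfp141, Zfp644 (1.74 ± 0.80), Zfp516 (1.31 ± 0.58) and Zfp532 exons 5 to 8 (1.06 ± 0.52), each with the lower mean in the 1-week sham libraries. The smallest adjusted p among them was 0.283 by limma. All 4 also had positive log2 fold changes for TAC over sham at 1 week. That comparison, and the differences of later TAC effects from it, use the same 1-week sham libraries and are not independent of these.

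The other members rested on few reads. Zfp638 exons 11 to 13 had a mean of 0.965 in 13 sham and 1.81 in 11 TAC libraries, and an averaged change of 0.85 ± 0.47 (adjusted p = 0.529 by limma). Zfp512 had 0.62 ± 0.41 (adjusted p = 0.625), with 1.21 ± 0.69 at 1 week, which was 0.61 without sham replicate 3. Zfp521 had -1.40 ± 0.80 at 1 week (adjusted p = 0.485), where the 4 TAC libraries held 1 read together and sham replicate 1 alone was at 7.54 normalized reads; it was -0.70 without that library. Zfp362 had an averaged -0.77 ± 0.47 (adjusted p = 0.596).

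Some genes of corepressors and heterochromatin, a list wider than the known partners of the KRAB box, gave circles themselves. Of 38 listed symbols of corepressor and heterochromatin genes 12 had circles, 19 in all; the list holds Tasor also under its earlier symbol Fam208a, which has a circle. Of the 19, 0 were called in any comparison. Neither Trim28, the direct partner of the KRAB box, nor Setdb1 was among the hosts. The most abundant was Ehmt1 exons 16 to 18, of the methyltransferase that pairs with Zfp644, at a mean of 15.1 (rank 43), with a log2 fold change of -1.23 ± 0.41 at 1 week (adjusted p = 0.107 by limma). The median log2 fold change of the 19 was 0.05 at 1 week, -0.07 at 4 weeks, -0.28 at 8 weeks and 0.08 on average. Their summed level was 49.5 ± 3.02 in sham and 46.1 ± 14.7 in TAC at 1 week, 49.3 ± 4.60 against 44.3 ± 7.98 at 4 weeks, and 57.1 ± 7.83 against 43.4 ± 2.73 at 8 weeks.

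The 36 circles of 25 hosts from other zinc finger families, such as Zbtb, Zfhx and Zmynd genes, were likewise called in 0 cases. At 1 week 26 of the 36 lay above 0, with a median log2 fold change of 0.57, where 51.9% of all circular RNAs lay above 0. Their summed level there was 69.3 ± 3.94 in sham and 91.8 ± 2.43 in TAC (SD, n = 4 each), with 64.6 to 73.6 against 89.5 to 93.9 by library. No test was made on that sum. At 4 and 8 weeks the sums were 70.4 ± 16.4 against 72.1 ± 18.1 and 70.8 ± 7.79 against 72.2 ± 5.12. Zfp609, the circle set aside by the rule, measured 3.55 ± 1.84 in sham and 10.0 ± 1.04 in TAC at 1 week (adjusted p = 0.0937 by limma). At 4 weeks it was at 11.96 ± 3.07 and 12.8 ± 2.53, and at 8 weeks at 10.9 ± 2.12 and 6.72 ± 3.10 (adjusted p = 0.980 and 0.885). Its TAC effect at 8 weeks less that at 1 week was -2.24 ± 0.72 (adjusted p = 0.218).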

How the data were processed

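The authors' deposited table gives a normalized signal of back-splice junction reads for 1717 circular RNAs in 24 libraries. Per the submitters' processing notes FastQC, Trimmomatic, STAR and the build mm10 were used. No source used here gives versions, the caller's settings or the normalization. Each value less an offset of 0.01 was a whole number of steps of 1 size per library (100% of values within 0.01 of a read), so whole reads could be recovered.

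Hosts, exons and sequences came from GENCODE vM21 on mm10. The test was limma 3.58.1 in R 4.3.3 with a trend, on log2(value + 0.5), over 6 groups and all circular RNAs; the filter of 2 reads in 3 libraries removed 0. Alternatives were pseudocounts of 0.1 and 1, a mean of 5 reads, TMM or total scaling, limma-voom, a replicate block, fewer groups and each library left out. The scripts were tested on simulated data, with changes at 1 week in circles with a mean of at least 2 normalized reads. The simulated reads had the same assumed spread between replicates for every circle, not estimated from these libraries, so the rates may differ in the real data. The test called 9% of 100 circles changed 2-fold and 44% of 100 changed 4-fold, with 5 false calls. Most changes of these sizes were thus missed, and the median Zfp circle, at 1.91, was scarcer.

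The members and gene lists were chosen with earlier results of these data known. Members were named by smallest p, level, shared host and fingers; the KRAB pattern (phenylalanine or leucine, a spacer, aspartate and valine, then glutamate and tryptophan) was added after the data were seen.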

Additional observations from a re-analysis of the deposited data

Results flagged for a closer look

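In 14 of 120 groups of 4 or 5 libraries tested, 1 library lay apart from the rest of its group by Dixon's criterion; chance flags about 1 in 20 groups of evenly spread values, but a group with 1 library above 0 and the rest at 0 is always flagged, as 8 of the 14 were, so no chance count holds here. For abundant circles, Zfp426 exons 3 to 5 was at 0 in sham 1-week replicate 1 and at 10.3 to 12.02 normalized reads in the others, Zfp516 exon 2 was at 21.5 in TAC 1-week replicate 1 against 2.92 to 5.99, and Zfp827 exons 6 to 8 was at 10.6 in sham 8-week replicate 3 against 20.9 to 22.3.

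The other 11 were circles of a few reads. Zfp638 exons 11 to 13 was at 3.10 in sham 1-week replicate 4 and at 4.34 in sham 4-week replicate 3, where the other libraries had 0 and at most 0.921. Zfp827 exon 5 was at 3.01 in sham 1-week replicate 3 and at 2.90 in TAC 4-week replicate 3. Zfp827 exons 5 to 8 was at 1.503 in sham 1-week replicate 3 and at 1.06 in sham 8-week replicate 4, and Zfp532 exons 7 to 8 was also at 1.06 in that library, with 0 in the rest of the group. Zfp521 was at 1.54 in TAC 1-week replicate 1, Zfp606 at 1.95 in TAC 1-week replicate 4 and Zfp236 exons 2 to 8 at 0.921 in sham 4-week replicate 5, each with 0 elsewhere in the group. Zfp362 was at 0 in sham 4-week replicate 1 against 1.57 to 2.04.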

How the results depend on the processing

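Under the alternatives, 735 values of the named members' fold changes kept direction and side of the threshold, and 2 now passed it (Zfp532 exons 5 to 8 at 1 week with a mean of at least 5 reads, and Zfp141 at 4 weeks over 1 week in sham without sham 1-week replicate 1). The counts of all circular RNAs called moved more. At 1 week (25 called) limma-voom gave 14 and a fit of only the groups compared 4. At 4 weeks (2 called) a pseudocount of 0.1 gave 0, a pseudocount of 1 and TMM scaling 6 each, limma-voom 7, the replicate block 4 and only the groups compared 14. For the average (11) a pseudocount of 0.1 gave 5 and limma-voom 20. For sham at 4 weeks over 1 week (0) a mean of at least 5 reads gave 1, and for sham at 8 weeks over 1 week (2) limma-voom gave 1 and only the groups compared 0. For the TAC effect at 4 weeks less that at 1 week (0) the replicate block gave 1, for 8 weeks less 1 week (0) a pseudocount of 1 gave 2 and limma-voom 3, and for 8 weeks less 4 weeks (0) limma-voom gave 2. The cause was not tested.

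Leaving out 1 library at a time gave 6 to 32 calls at 1 week, 0 to 4 at 4 weeks, 0 to 0 at 8 weeks, 4 to 17 for the average, 0 to 4 for sham at 4 weeks and at 8 weeks over 1 week, 0 to 0 for sham at 8 weeks over 4 weeks, and 0 to 1, 0 to 8 and 0 to 0 for the TAC effect between times. The ratio of the summed Zfp reads, TAC over sham, was 1.17 at 1 week (1.11 to 1.26 without a library), 1.02 at 4 weeks (0.995 to 1.05; 0.958 without the most abundant member) and 0.906 at 8 weeks (0.880 to 0.957). With 1 exon edge accepted the members would number 26.

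Replicate numbers here, also in the replicate block, are those of the sample titles. The authors' own library labels carry the same numbers at 1 week. At the later times their sham labels have other numbers or none, so the later pairs are not same-numbered by those labels. Over 11 pairs of sham and TAC libraries same-numbered by title, correlations of deviations ran from -0.08 to 0.14, with 1 over 0.1. The 1-week pairs among them gave 0.14, 0.02, 0.05 and 0.08. Differently numbered pairs ran from -0.12 to 0.096, and both of these ends were also 1-week pairs. With few reads a circle, these correlations cannot decide whether the replicate numbers pair libraries. Beside the counts given, the replicate block moved that of the average from 11 to 10 and no other. Tests by edgeR and DESeq2 were not run. At 54 to 145 Zfp reads a library, a difference in a member near 1 read a library is of the size of single reads.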

Other observations

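A further 3 circular RNAs had an exon edge of a Zfp gene at 1 end of the junction only and were not counted among the members. They were 1 of Zfp438 on chromosome 18 (mean 1.02 normalized reads, 25 reads in 16 libraries) and 2 of Zfp644 on chromosome 5 (1.86 and 0.953, on 44 and 24 reads).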
